A study of Mus musculus with 12 samples.

Results

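The 9 genes described here guide B cells through lymphoid tissue and were followed in RNA-seq libraries of cultured mouse B cells. They are the chemokine receptors *Ccr6*, *Ccr7*, *Cxcr4* and *Cxcr5*, the lipid receptors *S1pr1*, *S1pr4* and *Gpr183*, the integrin subunit *Itgb7* and the transcription factor *Klf2*. They were chosen by symbol, and make up 9 of the 55536 genes of the count table. B cells from the spleens of 6 C57BL/6 mice, 3 control and 3 Pdap1-deficient, were cultured for 48 h. By the description of the series, cells of each mouse went into both of 2 cultures, which gave 12 libraries in 4 groups. Both cultures held LPS (5 µg/ml). One also held IL-4 (5 ng/ml), here LPS-IL-4, which drives switching to IgG1, and the other BAFF (10 ng/ml) with TGFβ (2 ng/ml), here LPS-BAFF-TGFβ, which drives switching to IgG2b. All mice, controls included, carried 1 copy of a Cre allele that is active in the B lineage from early stages on. The Pdap1-deficient mice were also Pdap1F/F, and Cre removes exon 2 of these floxed alleles. Mice of the study were 7 to 27 weeks old and of both sexes, and controls included animals that were not littermates. No group was left unstimulated.

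Circulating B cells read positional signals with receptors that couple to G proteins. *Cxcr5* leads them to follicles, *Ccr7* to the T cell zone, *Gpr183* (EBI2), a receptor for oxysterols, to the outer follicle, *Ccr6* towards its ligand Ccl20, and *Cxcr4* towards Cxcl12 in the dark zone of germinal centers and the bone marrow. *S1pr1* senses sphingosine 1-phosphate and lets lymphocytes leave lymphoid organs, *S1pr4* is a related receptor of blood cells, *Itgb7* pairs with *Itga4* to bind the gut addressin, and *Klf2* is a transcription factor known to maintain *S1pr1* in lymphocytes. In bulk libraries such as these, fewer cells of a type and less RNA per cell cannot be told apart.

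Libraries held between 4579793 and 15869143 counts, except that of control mouse 1 with LPS-BAFF-TGFβ, which held 69500640. The check of the targeted gene followed the labels: with LPS-IL-4, *Pdap1* was between 91.4 and 97.8 CPM (counts scaled to library size) in control and between 23.3 and 29.9 in Pdap1-deficient cultures. In LPS-BAFF-TGFβ cultures these ranges were 80.3 to 199 and 23.0 to 26.4. All 8 B cell markers had counts in each of the 12 libraries. The summed level of 8 myeloid markers was between 5.22 and 24.2 CPM in the 6 control libraries and the libraries of Pdap1-deficient mouse 1. It was 305 (LPS-IL-4) and 536 CPM (LPS-BAFF-TGFβ) in Pdap1-deficient mouse 2 and 32.8 and 77.8 CPM in mouse 3. Of these markers *Lyz2* reached 94.0 and 278 CPM in mouse 2, while *Ly6g* stayed at or below 0.0608 CPM in every library. The summed level of 8 T cell markers was 22.5 and 11.4 CPM in mouse 2 and at most 9.11 in the others. The labels name CH12, a B lymphoma line, for every sample. The description of the series and the paper's Methods name mouse spleen, as taken here. Reads of Y-linked genes were present in both cultures of control mouse 2 and of Pdap1-deficient mice 2 and 3 and near 0 in both cultures of the other 3 mice. In the library of Pdap1-deficient mouse 1 with LPS-BAFF-TGFβ, *Lars2* took 9.90% of the counts.

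**Figure D1:**
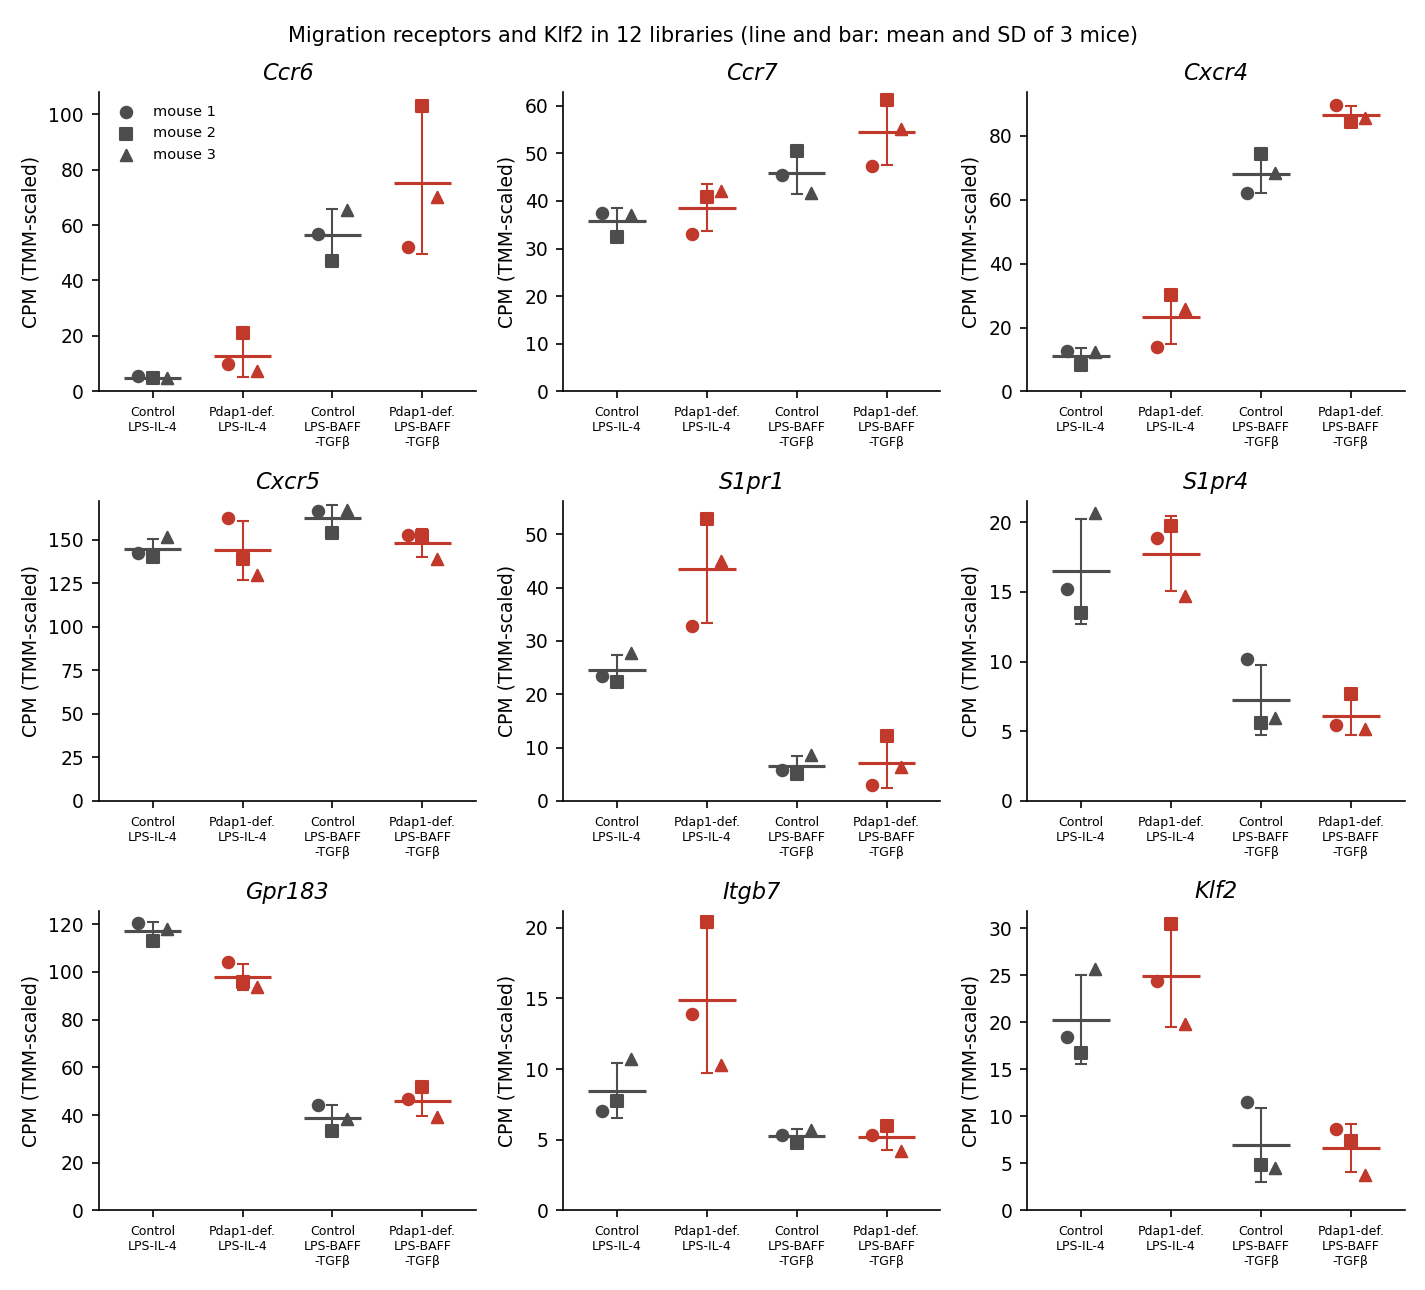
CPM (counts scaled to library size) of the 9 genes in 12 libraries, 1 panel per gene with its own linear axis from 0. Circles, squares and triangles mark mice 1, 2 and 3, and lines with bars mark the mean and SD of 3 mice. In control mice *Ccr6* is near 5 CPM with LPS-IL-4 and above 46 with LPS-BAFF-TGFβ, and *S1pr1* falls from above 22 to below 9.

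The 9 genes are protein coding, and their places are given on GRCm38 with the identifiers of the count table. *Ccr6* (ENSMUSG00000040899) lies at chr17:8236043-8257141 on the plus strand and *Klf2* (ENSMUSG00000055148) at chr8:72319033-72321656 on the plus strand. The others lie on minus strands: *Ccr7* (ENSMUSG00000037944) at chr11:99144196-99155077, *Cxcr4* (ENSMUSG00000045382) at chr1:128588199-128592293 and *Cxcr5* (ENSMUSG00000047880) at chr9:44511787-44561877. The lipid receptors are *S1pr1* (ENSMUSG00000045092) at chr3:115710433-115715072, *S1pr4* (ENSMUSG00000044199) at chr10:81497747-81500132 and *Gpr183* (ENSMUSG00000051212) at chr14:121952551-121965195. *Itgb7* (ENSMUSG00000001281) lies at chr15:102215995-102231944. Counts are sums over all exons of a gene.

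All 9 genes were expressed in every library, with raw counts between 18 (*S1pr1*) and 10462 (*Cxcr5*). To compare genes with each other, CPM was divided by the length of all exons in kilobases (CPM per kb). With LPS-IL-4, *Cxcr5* was highest in control cultures at 43.4 ± 1.80 CPM per kb (SD, 3 mice), followed by *Gpr183* at 40.6 ± 1.35, *Ccr7* at 18.1 ± 1.43 and *Klf2* at 10.98 ± 2.57. *S1pr1* (8.03), *S1pr4* (6.90) and *Cxcr4* (6.11) came next, and *Itgb7* (3.06) and *Ccr6* (2.16) were lowest. Values of neighbours in this order overlapped between *Klf2* and *S1pr1*, *S1pr1* and *S1pr4*, and *S1pr4* and *Cxcr4*, and were separate elsewhere. In Pdap1-deficient cultures *Cxcr5* (43.2), *Gpr183* (33.9) and *Ccr7* (19.5) led again, and from *Ccr7* downwards each gene overlapped with the next.

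With LPS-BAFF-TGFβ the order changed. In control cultures *Cxcr5* (48.7 ± 2.26 CPM per kb) was followed by *Cxcr4* (37.7 ± 3.35), *Ccr6* (24.3 ± 4.0), *Ccr7* (23.2 ± 2.21) and *Gpr183* (13.4 ± 1.93). *Klf2*, *S1pr4*, *S1pr1* and *Itgb7* lay between 1.91 and 3.78, and each overlapped with the next. *Ccr6* thus stood at place 9 of 9 with LPS-IL-4 and at place 3 with LPS-BAFF-TGFβ, where it overlapped with *Ccr7*. In Pdap1-deficient cultures *Cxcr4* (47.9 ± 1.52) was above *Cxcr5* (44.4 ± 2.40) with no overlap, and *Ccr6* (32.4 ± 11.1) overlapped with both *Cxcr5* and *Ccr7*.

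**Figure D2:**
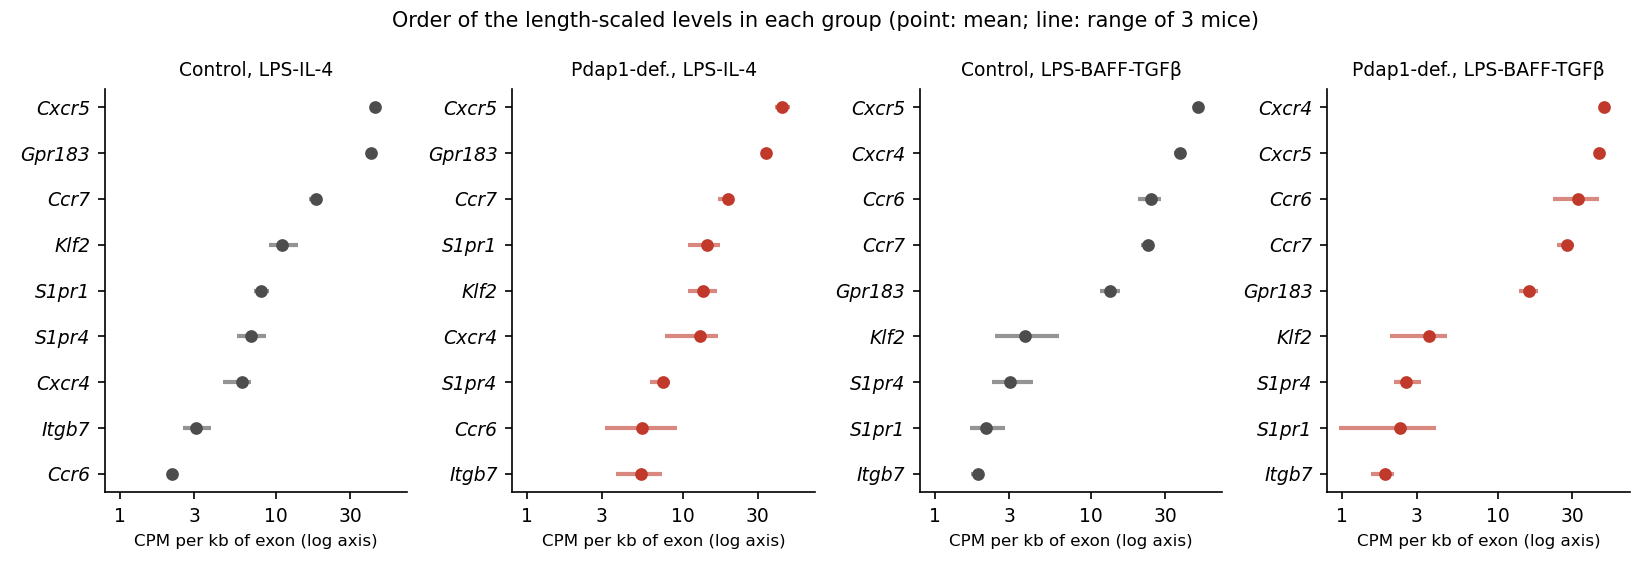
Length-scaled level (CPM per kb of exon, log axis) of the 9 genes in each group, sorted from high to low. Points are means and lines the range of 3 mice; *Cxcr5* and *Gpr183* lead with LPS-IL-4, and *Cxcr5* and *Cxcr4* with LPS-BAFF-TGFβ.

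The stimulations were compared first, within control mice, as LPS-BAFF-TGFβ over LPS-IL-4. Chemokine receptors were higher and lipid receptors, *Itgb7* and *Klf2* lower with LPS-BAFF-TGFβ. Of the 9 genes 6 passed an adjusted p of 0.05 in edgeR's quasi-likelihood test, 2 higher and 4 lower, against 19.3% of the 14882 genes tested (9.99% higher and 9.33% lower). The groups of 3 mice did not overlap for any of the 9, a property shared by 37.8% of the genes tested. The median log2 fold change was -0.68 over the 9 genes and 0.03 over all genes.

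*Ccr6* rose the most of the 9. In control mice 1, 2 and 3 it was at 5.44, 4.68 and 4.91 CPM with LPS-IL-4 and at 56.7, 47.0 and 65.5 with LPS-BAFF-TGFβ, so that the lowest value of the second group was far above the highest of the first. The fitted mean, taken from edgeR's log2 fold change here and below, was 11.3 times higher (log2 fold change 3.49, SE 0.16, edgeR adjusted p = 5.49e-06). *Cxcr4* was at 12.5, 8.27 and 12.4 CPM with LPS-IL-4 and at 62.1, 74.2 and 68.3 with LPS-BAFF-TGFβ. Its groups were again far apart, with a fitted mean 6.17 times higher (log2 fold change 2.62, SE 0.17, adjusted p = 3.11e-05). The T zone receptor *Ccr7* was between 32.5 and 37.6 and between 41.8 and 50.5 CPM (log2 fold change 0.36, adjusted p = 0.0595), and the follicular receptor *Cxcr5* between 140 and 151 and between 154 and 167 CPM (0.17, adjusted p = 0.206). Neither passed the test, although both were higher in all 3 control mice.

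The 3 lipid receptors fell. *S1pr1* was at 23.4, 22.2 and 27.8 CPM with LPS-IL-4 and at 5.75, 5.11 and 8.65 with LPS-BAFF-TGFβ in control mice 1, 2 and 3. Its fitted mean was 3.8 times higher with LPS-IL-4 (log2 fold change -1.92, SE 0.21, edgeR adjusted p = 0.00046). *Gpr183* was at 121, 113 and 118 CPM against 44.3, 33.2 and 38.2, with a fitted mean 3.02 times higher with LPS-IL-4 (log2 fold change -1.59, SE 0.11, adjusted p = 4.65e-05). *S1pr4* was at 15.2, 13.5 and 20.7 CPM against 10.2, 5.60 and 5.97 (log2 fold change -1.14, SE 0.27, adjusted p = 0.0195). Among its low values that of mouse 1, from the deep library, stood above the other two, and the same held for *Klf2*.

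*Klf2* fell with them, from 18.4, 16.7 and 25.7 CPM to 11.6, 4.87 and 4.51 (log2 fold change -1.46, SE 0.37, adjusted p = 0.0343). *Itgb7* was at 7.0, 7.73 and 10.7 CPM with LPS-IL-4 and at 5.37, 4.74 and 5.72 with LPS-BAFF-TGFβ, and did not pass (log2 fold change -0.68, adjusted p = 0.0576). Without the deep library of control mouse 1, 8 of the 9 genes passed: *Klf2* was at -2.10, *S1pr4* at -1.5, *Ccr7* at 0.38 (adjusted p = 0.0155) and *Itgb7* at -0.68 (adjusted p = 0.0323), and *Cxcr5* alone did not. The calls of *S1pr4* and *Klf2* were lost in 5 and 6 of 14 alternative settings. *S1pr4* was at an adjusted p of 0.0586 after thinning to the smallest library, and *Klf2* at 0.136 without a filter on low counts. The other losses came with 1 library left out. For *S1pr4* the adjusted p was 0.0586 and 0.0812 without the LPS-IL-4 library of mouse 1 or 3, and 0.0525 and 0.069 without the LPS-BAFF-TGFβ library of mouse 2 or 3. For *Klf2* it was 0.0908, 0.0709 and 0.111 without the LPS-IL-4 library of mouse 1, 2 or 3, and 0.0758 and 0.078 without the LPS-BAFF-TGFβ library of mouse 2 or 3. *Ccr6*, *Cxcr4*, *S1pr1* and *Gpr183* passed in each of 14 alternative settings.

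Within Pdap1-deficient mice the same comparison had 8 of the 9 genes past the threshold, 3 higher and 5 lower, against 11.5% of the 14617 genes tested (5.57% higher and 5.89% lower). In these 8 the groups did not overlap, as in 29.1% of the genes tested. The median log2 fold change was -1.10 over the 9 genes and -0.003 over all genes.

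*Ccr6* was at 9.73, 21.04 and 7.30 CPM with LPS-IL-4 and at 52.3, 103 and 70.2 with LPS-BAFF-TGFβ in Pdap1-deficient mice 1, 2 and 3. Mouse 2 was highest in both stimulations, and the fitted mean was 5.83 times higher with LPS-BAFF-TGFβ (log2 fold change 2.54, SE 0.51, edgeR adjusted p = 0.0391). *Cxcr4* went from 13.9, 30.1 and 25.7 to 89.7, 84.4 and 85.6 CPM, 3.72 times higher (log2 fold change 1.90, SE 0.26, adjusted p = 0.00394). Its values were spread with LPS-IL-4 and close together with LPS-BAFF-TGFβ. *Ccr7* was between 33.1 and 42.1 CPM and between 47.3 and 61.1 CPM (log2 fold change 0.50, adjusted p = 0.0498). *Cxcr5* overlapped between the stimulations, with values between 130 and 163 and between 139 and 153 CPM (log2 fold change 0.04, adjusted p = 0.877, 95% interval from -0.21 to 0.29).

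On the falling side, *S1pr1* went from 32.8, 52.8 and 44.9 CPM to 2.90, 12.2 and 6.45, with a fitted mean 6.19 times higher with LPS-IL-4 (log2 fold change -2.63, SE 0.50, adjusted p = 0.0279). The lowest of these values, in mouse 1, rested on 18 counts. *S1pr4* went from 18.8, 19.7 and 14.7 CPM to 5.48, 7.64 and 5.16 (log2 fold change -1.56, SE 0.21, adjusted p = 0.00129). *Gpr183* went from 104, 96.0 and 93.8 CPM to 46.6, 51.8 and 39.3 (log2 fold change -1.10, SE 0.12, adjusted p = 0.000433). In all 3 lipid receptors the groups were wide apart. The integrin subunit *Itgb7* went from 13.9, 20.4 and 10.3 to 5.32, 5.99 and 4.22 CPM (log2 fold change -1.54, SE 0.28, adjusted p = 0.006), and *Klf2* from 24.4, 30.5 and 19.8 to 8.71, 7.43 and 3.75 CPM (-1.93, SE 0.30, adjusted p = 0.00416).

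Calls of *Ccr6*, *S1pr1* and *Ccr7* were lost in 5, 4 and 8 of 14 alternative settings in this genotype. Without a filter on low counts *Ccr6* was at an adjusted p of 0.0984 and *S1pr1* at 0.0892. *Ccr7* was at 0.0544 with DESeq2 size factors and at 0.0543 with at least 10 counts in every library. The adjusted p of *Ccr6* was 0.116 and 0.0859 without the LPS-IL-4 library of mouse 1 or 3, and 0.0848 and 0.106 without the LPS-BAFF-TGFβ library of mouse 2 or 3. That of *S1pr1* was 0.0932 and 0.113 without the LPS-IL-4 library of mouse 2 or 3, and 0.143 without the LPS-BAFF-TGFβ library of mouse 3. *Ccr7* kept its call without a library only when that was the LPS-IL-4 library of mouse 2 (adjusted p = 0.0233), and was at 0.148 and 0.0971 without that of mouse 1 or 3, and 0.0623, 0.147 and 0.15 without the LPS-BAFF-TGFβ library of mouse 1, 2 or 3. With both cultures of mouse 2, which carried the most myeloid marker reads, left out, 7 of the 9 genes passed and *Ccr7* was at 0.0501. *Ccr6* was then at 2.84 and *S1pr1* at -2.99 (log2 fold change). With the mouse as a block the 8 genes passed as well, while the number of genes called over the whole table rose from 1675 to 3854. In control libraries the summed myeloid markers ranged from 5.22 to 13.5 CPM in LPS-IL-4 and from 16.3 to 24.2 CPM in LPS-BAFF-TGFβ cultures, and their part in the stimulation results of control mice was not tested.

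**Figure D3:**
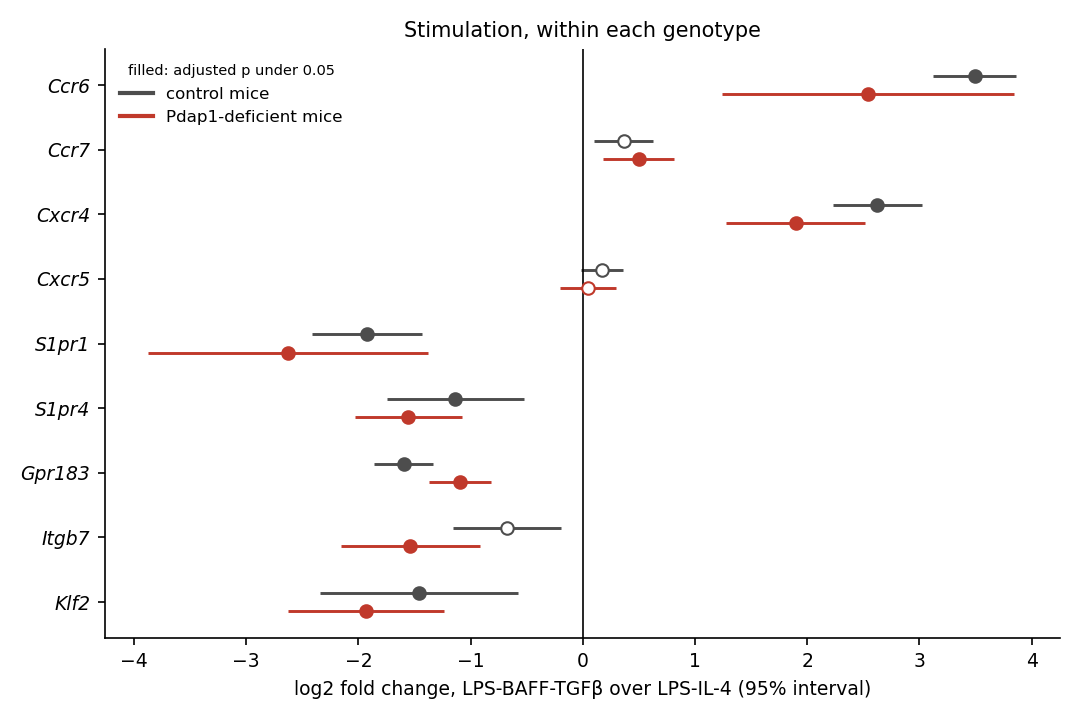
Log2 fold change of the 9 genes, LPS-BAFF-TGFβ over LPS-IL-4, in control (grey) and Pdap1-deficient mice (red), with 95% intervals; filled points passed an adjusted p of 0.05. *Ccr6* and *Cxcr4* lie at the right, at 3.49 and 2.62 in control mice, and *S1pr1*, *S1pr4*, *Gpr183* and *Klf2* at the left in both genotypes.

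With cultures paired by mouse number, the log2 difference between stimulations had 1 sign in all 6 mice for 8 of the 9 genes. It was between 2.28 and 3.70 for *Ccr6*, between 1.48 and 3.14 for *Cxcr4* and between 0.17 and 0.63 for *Ccr7*. It was between -3.43 and -1.67 for *S1pr1*, between -1.77 and -0.58 for *S1pr4*, between -1.76 and -0.89 for *Gpr183*, between -1.74 and -0.37 for *Itgb7* and between -2.47 and -0.67 for *Klf2*. For *Klf2*, *S1pr4* and *Itgb7* the value nearest 0 was that of control mouse 1. *Cxcr5* was between -0.09 and 0.23, with Pdap1-deficient mouse 1 below 0.

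Upstream sequences are shown for some of the genes that fell or rose together with LPS-BAFF-TGFβ in Pdap1-deficient mice. A shared promoter motif is a first thing to look for in such a set. RefSeq sequences on GRCm38.p6 were matched for 6 of the 9 genes. The 250 bases before the RefSeq start are printed 5′ to 3′ on the gene's strand, and capitals mark the CCACCC box bound by factors of the Klf family, or GGGTGG, which is the same box on the other strand. The first 3 genes fell and *Cxcr4* rose. Those 3 are the matched falling genes whose windows held the box, and *Gpr183*, which fell too, is not printed.
Klf2, chr8:72318812-72319061, plus strand: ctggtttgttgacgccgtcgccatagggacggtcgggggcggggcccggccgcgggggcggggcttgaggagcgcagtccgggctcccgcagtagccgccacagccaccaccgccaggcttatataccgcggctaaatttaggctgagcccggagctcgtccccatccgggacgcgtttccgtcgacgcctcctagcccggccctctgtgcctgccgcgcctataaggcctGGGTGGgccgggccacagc
S1pr4, chr10:81500138-81500387, minus strand: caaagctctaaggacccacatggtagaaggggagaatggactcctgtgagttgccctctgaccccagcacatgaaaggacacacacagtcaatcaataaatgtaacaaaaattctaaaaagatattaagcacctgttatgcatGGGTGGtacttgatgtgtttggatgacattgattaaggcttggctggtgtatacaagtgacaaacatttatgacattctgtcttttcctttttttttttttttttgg
Itgb7, chr15:102231936-102232185, minus strand: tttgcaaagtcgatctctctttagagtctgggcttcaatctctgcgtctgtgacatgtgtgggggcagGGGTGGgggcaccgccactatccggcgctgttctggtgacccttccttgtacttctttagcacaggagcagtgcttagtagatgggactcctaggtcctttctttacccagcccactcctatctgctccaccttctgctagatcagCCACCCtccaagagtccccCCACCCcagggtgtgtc
Cxcr4, chr1:128592300-128592549, minus strand: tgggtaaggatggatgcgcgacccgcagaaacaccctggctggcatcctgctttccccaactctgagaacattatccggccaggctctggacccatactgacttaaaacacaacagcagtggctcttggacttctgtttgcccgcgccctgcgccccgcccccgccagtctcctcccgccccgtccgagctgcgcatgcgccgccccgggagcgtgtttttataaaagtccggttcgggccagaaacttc
The box was present 1 time in *Klf2*, 1 time in *S1pr4* and 3 times in *Itgb7*. It was not in the window of *Gpr183*, which fell, nor in those of *Cxcr4* or the 2 starts of *Ccr6*, which rose. It was in 28.1% of all 32851 promoters of this length, so that 3 of 6 genes is a description only. A Stat6-type site (TTC and GAA with any 4 bases between them, in 5.85% of all promoters), a Foxo site (GTAAACA, in 3.17%) and a SMAD palindrome (GTCTAGAC, in 0.167%) were searched on both strands as well and were in none of the windows of the 6 genes. RefSeq and GENCODE starts differ: the last 29 bases of the *Klf2* window, which hold its box, and the last 9 of the *Itgb7* window lie inside the gene as placed by GENCODE. The GC content of the printed windows was 71.2% for *Klf2*, 38.8% for *S1pr4*, 56.0% for *Itgb7* and 61.2% for *Cxcr4*.

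Genotypes were compared next, Pdap1-deficient over control, to learn whether loss of Pdap1 changed the level of these genes. With LPS-IL-4, *S1pr1* passed the threshold, 1 gene of 9, against 4.92% of the 15074 genes tested (2.79% higher and 2.12% lower). *Ccr6*, *Cxcr4* and *S1pr1* were higher in every Pdap1-deficient than in every control culture and *Gpr183* lower, as in 31.7% of the genes tested (15.5% higher and 16.1% lower). At an unadjusted p under 0.05 there were 5 of the 9 genes, against 23.8% of those tested. The median log2 fold change was 0.29 over the 9 genes and 0.02 over all genes.

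*S1pr1* was at 23.4, 22.2 and 27.8 CPM in control mice 1, 2 and 3 and at 32.8, 52.8 and 44.9 in Pdap1-deficient mice 1, 2 and 3. The fitted mean was 1.76 times higher (log2 fold change 0.82, SE 0.16, edgeR adjusted p = 0.0234). The call held in 8 of 14 alternatives. It was lost without control mouse 1 (adjusted p = 0.114), 2 (0.141) or 3 (0.0953) and without Pdap1-deficient mouse 3 (0.0897), with all 12 libraries in 1 fit (0.209) and with presence of Y-linked reads as a term (0.103). Without Pdap1-deficient mouse 2, the mouse with the most myeloid marker reads and the highest value of *S1pr1*, the log2 fold change was 0.67 (adjusted p = 0.0097). Mouse 3, with 32.8 CPM of these markers, stayed in that fit.

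*Ccr6* was at 5.44, 4.68 and 4.91 CPM in control and at 9.73, 21.04 and 7.30 CPM in Pdap1-deficient mice (log2 fold change 1.34, SE 0.36, edgeR adjusted p = 0.0711). The value of mouse 2 was far above the other two. Without mouse 2 the difference was 0.78 and passed (adjusted p = 0.0265), as it did without Pdap1-deficient mouse 1 (1.49, adjusted p = 0.0441) or 3 (1.59, adjusted p = 0.0429). *Cxcr4* was at 12.5, 8.27 and 12.4 against 13.9, 30.1 and 25.7 CPM (log2 fold change 1.06, SE 0.28, adjusted p = 0.0672). Its lowest Pdap1-deficient value, in mouse 1, was close to the control values, and without that mouse the difference was 1.31 (adjusted p = 0.00644). Without Pdap1-deficient mouse 2 it was 0.83 (adjusted p = 0.163). *Itgb7* was at 7.0, 7.73 and 10.7 against 13.9, 20.4 and 10.3 CPM (log2 fold change 0.81, SE 0.25, adjusted p = 0.0869). Its groups overlapped through mouse 3 of each, and without Pdap1-deficient mouse 2 the difference was 0.53. DESeq2's Wald test called *S1pr1*, *Ccr6*, *Cxcr4* and *Itgb7*, with adjusted p of 0.00119, 0.00434, 0.00375 and 0.0492.

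*Gpr183* was the one gene with all Pdap1-deficient values below the control values, at 104, 96.0 and 93.8 against 121, 113 and 118 CPM (log2 fold change -0.27, SE 0.10, adjusted p = 0.13). It passed the threshold in 0 of 14 alternatives. *Klf2* was between 16.7 and 25.7 CPM in control and between 19.8 and 30.5 in Pdap1-deficient cultures (log2 fold change 0.29, 95% interval from -0.13 to 0.71, adjusted p = 0.379). The groups overlapped also for *Ccr7* (0.10, from -0.17 to 0.37), *S1pr4* (0.10, from -0.30 to 0.50) and *Cxcr5* (-0.02, from -0.26 to 0.23).

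**Figure D4:**
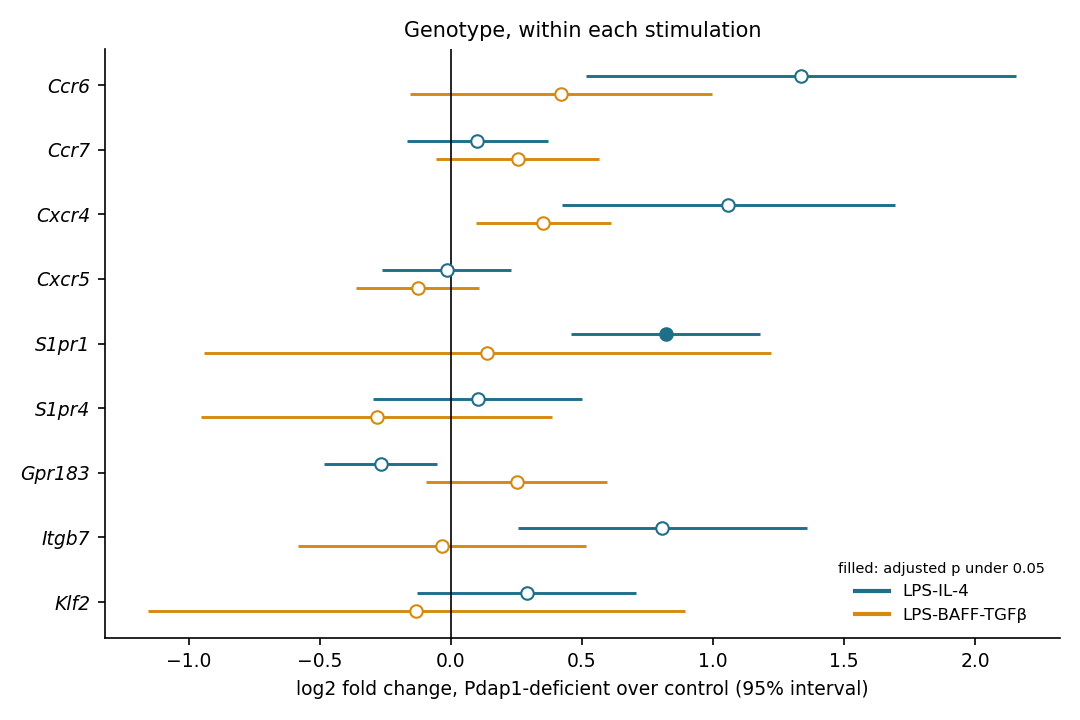
Log2 fold change of the 9 genes, Pdap1-deficient over control, with LPS-IL-4 (blue) and LPS-BAFF-TGFβ (orange), with 95% intervals; filled points passed an adjusted p of 0.05. *S1pr1* with LPS-IL-4, at 0.82, is the filled point.

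**Figure D5:**
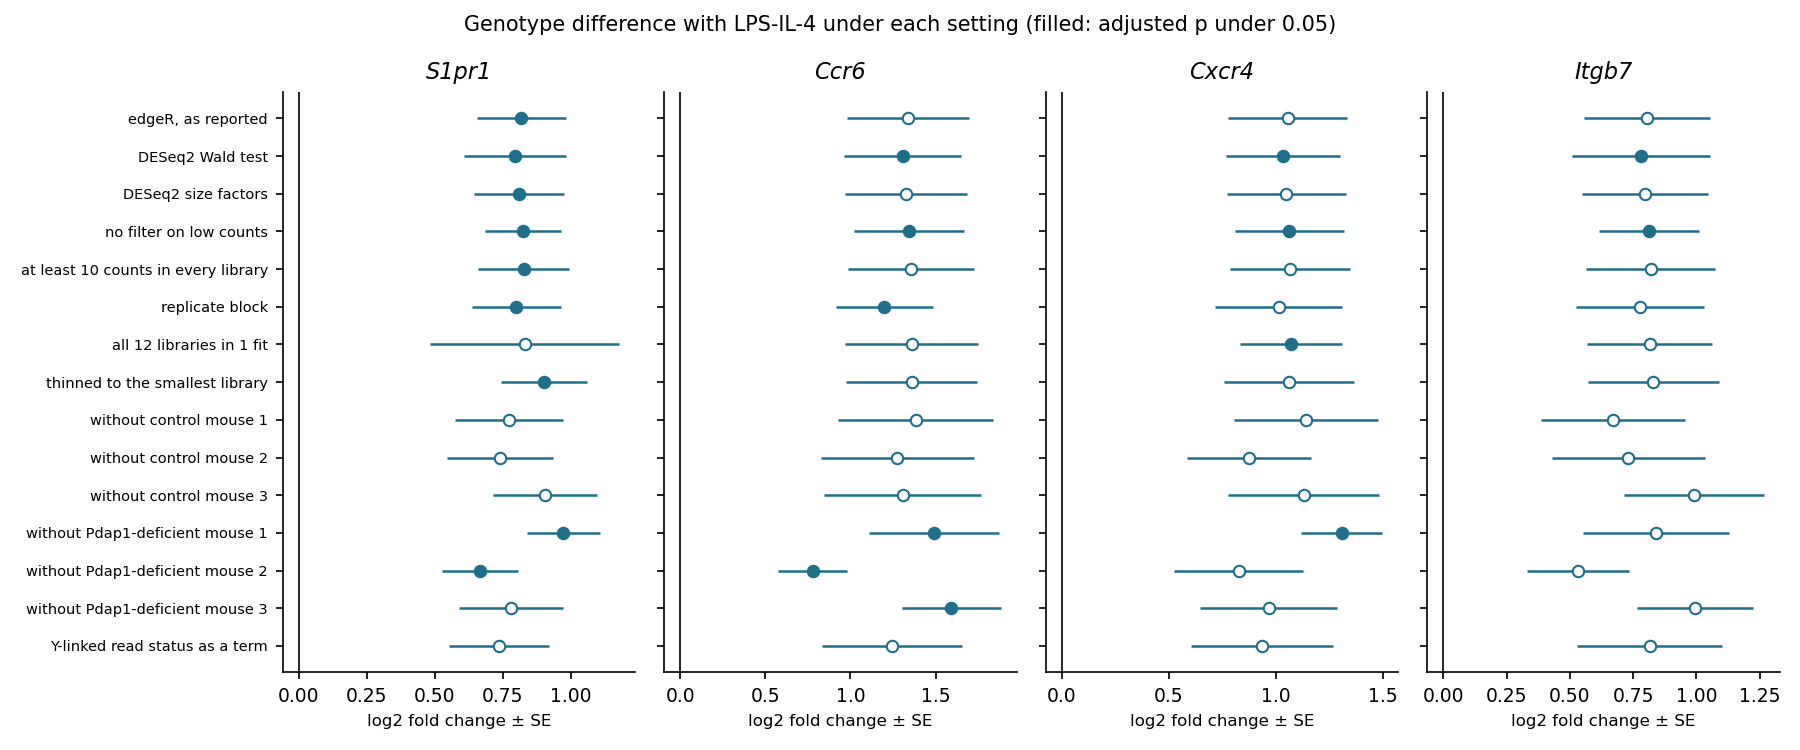
Log2 fold change of *S1pr1*, *Ccr6*, *Cxcr4* and *Itgb7* with LPS-IL-4, Pdap1-deficient over control, as reported and under 14 other settings, with bars of 1 standard error and filled points past an adjusted p of 0.05. All values lie above 0; *S1pr1* is filled as reported and in 8 of the other settings, *Ccr6* in 6, *Cxcr4* in 4 and *Itgb7* in 2.

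With LPS-BAFF-TGFβ, 0 of the 9 genes passed in edgeR's test, against 0.462% of the 14079 genes tested. *Pdap1*, the deleted gene, did not pass here either (log2 fold change -2.33, SE 0.36, edgeR adjusted p = 0.0929). A missing call in this comparison therefore does not show equal levels. At an unadjusted p under 0.05 there was 1, *Cxcr4*, against 10.6% of the genes tested, and DESeq2's Wald test called 0. *Cxcr4* was at 62.1, 74.2 and 68.3 CPM in control and at 89.7, 84.4 and 85.6 in Pdap1-deficient mice 1, 2 and 3 (log2 fold change 0.35, SE 0.11, edgeR adjusted p = 0.345). These groups did not overlap, nor did those of *Cxcr5*, which was at 166, 154 and 167 CPM against 153, 152 and 139 (log2 fold change -0.13, adjusted p = 0.653). Groups without overlap made up 18.6% of the genes tested, 9.55% higher and 9.08% lower in Pdap1-deficient mice.

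The other 7 genes overlapped. Intervals of the log2 fold change were from -0.16 to 0.996 for *Ccr6*, from -0.05 to 0.56 for *Ccr7*, from -0.09 to 0.60 for *Gpr183* and from -0.58 to 0.51 for *Itgb7*. They were wider for the genes with few counts in this stimulation, from -0.94 to 1.22 for *S1pr1*, from -0.95 to 0.39 for *S1pr4* and from -1.15 to 0.89 for *Klf2*. The difference of *S1pr1* seen with LPS-IL-4 (0.82) lies inside the first of these. For *S1pr1* the Pdap1-deficient values were 2.90, 12.2 and 6.45 CPM, again highest in mouse 2, and without that mouse the log2 fold change turned from 0.14 to -0.46. For *Klf2* it turned from -0.13 to 0.48 without the deep library of control mouse 1, and for *S1pr4* from -0.28 to 0.06.

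Whether the genotype difference depended on the stimulation was tested as an interaction over the 12 libraries, without a term for the mouse. It was coded as the genotype log2 fold change in LPS-BAFF-TGFβ cultures minus that in LPS-IL-4 cultures. A positive value is thus a shift upwards and need not be a larger effect of Pdap1 loss. No gene passed, 0% of the 15794 genes tested by edgeR, and 755 genes (4.78%) had an unadjusted p under 0.05. DESeq2 called 6 genes and 0 of the 9. Of the 9 genes 3 had an unadjusted p under 0.05: *Gpr183* (0.50, SE 0.17, unadjusted p = 0.013), *Itgb7* (-0.86, SE 0.37, unadjusted p = 0.0346) and *Cxcr4* (-0.73, SE 0.33, unadjusted p = 0.0456), each with an edgeR adjusted p of 0.983. For *S1pr1* the interaction was -0.71, with an interval from -1.87 to 0.46.

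Other genes of migration, from lists written by hand, were called as follows. With LPS-BAFF-TGFβ over LPS-IL-4 in control mice, 5 of the 12 other chemokine receptors tested rose and none fell. *Cx3cr1*, a fractalkine receptor, went from 0.495 to 7.57 CPM (adjusted p = 0.000141), *Ccr1* from 0.395 to 6.38, *Cxcr3* from 0.116 to 2.14 and *Xcr1* from 0.809 to 2.76. These started from very low levels. In Pdap1-deficient mice *Ccr1* (2.04, adjusted p = 0.167) and *Xcr1* (0.96, adjusted p = 0.203) did not pass, and *Cxcr3* was too low to be tested. In Pdap1-deficient mice 1 of 10 rose, *Cx3cr1* (log2 fold change 3.74, adjusted p = 0.0107).

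Of 11 other lipid receptors tested, 2 rose and 5 fell in control mice, and 2 rose and 4 fell in Pdap1-deficient mice. The sphingosine 1-phosphate receptor *S1pr3* fell in both, from 29.1 to 1.01 CPM in control mice (log2 fold change -4.80, adjusted p = 2.60e-06) and from 21.8 to 1.26 CPM in Pdap1-deficient mice (-4.08, adjusted p = 1.55e-05). The cannabinoid receptor *Cnr2* fell (-1.05 and -1.15) and *Gpr34*, a receptor for lysophosphatidylserine, rose (from 0.501 to 8.10 and from 0.831 to 7.68 CPM). *Ptger2*, a prostaglandin E2 receptor, fell in both (-2.62 and -2.16), and *Gpr174*, another receptor for lysophosphatidylserine, rose in both (0.87 and 0.67). Of 5 ligands and lipid enzymes tested, *Sgpl1*, the lyase that degrades sphingosine 1-phosphate, fell in both genotypes (-0.98, adjusted p = 0.000206, and -0.75, adjusted p = 0.00498). *Spns2*, a transporter of sphingosine 1-phosphate, rose in control mice (0.89, adjusted p = 0.0216) and was at 0.95 in Pdap1-deficient mice (adjusted p = 0.085).

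Among adhesion molecules 3 of 16 rose and 5 fell in control mice, and 1 of 18 rose and 5 fell in Pdap1-deficient mice. *Selplg*, which binds P-selectin, fell in both (log2 fold change -1.90 and -1.92), and *Itgb1*, the integrin beta 1 chain, fell in both as well (-1.08, adjusted p = 0.000158, and -0.92, adjusted p = 0.0017). *Vcam1*, a ligand of integrin alpha 4, went from 0.0275 to 14.3 CPM in control and from 0.268 to 9.18 CPM in Pdap1-deficient mice, and *Pecam1* rose in control mice (1.02, adjusted p = 0.000138) and was at 0.46 in Pdap1-deficient mice (adjusted p = 0.119). Of 37 genes of receptor signalling and desensitisation, 12 rose and 4 fell in control mice, and 8 rose and 3 fell in Pdap1-deficient mice. *Rgs2*, which shortens G protein signals, rose from 1.46 to 23.5 CPM and from 2.20 to 23.8 CPM, and *Rgs18* rose too (1.84 and 1.55). *Rgs3* (2.05 and 1.5) and phospholipase *Plcb2* (0.87 and 0.59) rose in both. *Cd69*, which removes S1pr1 from the cell surface, fell in control (-0.999, adjusted p = 0.00288) and in Pdap1-deficient mice (-1.15, adjusted p = 0.000207), and the G protein subunit *Gna12* rose in both (0.75 and 0.92).

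Of 13 Foxo and Klf regulators, *Bach2* (0.53) and *Foxo1* (0.53, adjusted p = 0.0143) were among 3 that rose in control mice, and *Klf3* (-1.65, adjusted p = 3.39e-05) and *Mef2c* (-0.47) fell. *Klf3* was the 1 gene of this list that fell in Pdap1-deficient mice (-1.45, adjusted p = 0.00659), and 0 rose by edgeR. *Bach2* was there at 0.45 (adjusted p = 0.34), *Foxo1* at 0.10 (adjusted p = 0.788) and *Mef2c* at -0.23 (adjusted p = 0.197).

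With LPS-IL-4, *Itga4*, the partner of *Itgb7*, rose from 144 CPM in control to 269 CPM in Pdap1-deficient cultures (log2 fold change 0.89, adjusted p = 0.00454), among 16 adhesion molecules tested. Of the signalling genes 3 of 37 rose: *Pik3cg*, a kinase downstream of chemokine receptors (1.36, adjusted p = 0.00291), the receptor kinase *Grk5* (1.06) and *Cd69* (0.63, adjusted p = 0.0176). *Klf6* (0.97, adjusted p = 0.00309) and *Tsc22d3* (1.07, adjusted p = 0.00497), a Foxo target, rose among 13 regulators. None of these lists had a gene that fell. Other lipid receptors and the ligands and enzymes had 0 calls by edgeR, with *S1pr3* (-0.43, adjusted p = 0.146) and *Sgpp1* (-0.28, adjusted p = 0.208) nearest the threshold.

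With LPS-BAFF-TGFβ, *Tsc22d3* was the 1 gene of these lists past the threshold (1.39, adjusted p = 0.0175). The gene nearest to it in each other list was *Itga4* (0.65, adjusted p = 0.102), *Pik3cg* (0.73, adjusted p = 0.256), *Sgpl1* (0.32, adjusted p = 0.442), *Cxcr3* (-1.39, adjusted p = 0.442) and *Ptger4* (0.29, adjusted p = 0.475). In the interaction the smallest adjusted p of these lists was 0.98, for *Vcam1* (-3.47) among others.

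Markers of B cell subsets moved in the same comparisons. With LPS-IL-4, *Cd9* (1.14), *Cd1d1* (1.05) and *Ighd* (0.64) were higher and *Fcer2a* (-0.92, adjusted p = 0.00214) lower in Pdap1-deficient cultures, 4 of 7 marginal zone and follicular markers. *Prdm1*, 1 of 5 plasmablast markers, was higher (1.82, adjusted p = 0.000323), and its interaction was -1.57 (adjusted p = 0.217). The other 4 did not pass. Of the 5, 4 were fitted higher and 1, *Sdc1*, lower. *Sdc1* was at 6.42, 8.99 and 9.90 CPM in control and at 5.84, 3.95 and 5.29 in Pdap1-deficient mice 1, 2 and 3, without overlap. With LPS-BAFF-TGFβ over LPS-IL-4 in control mice, *Cr2* went from 52.4 to 354 CPM while *Fcer2a*, *Ighd* and *Notch2* fell, and of 5 plasmablast markers *Xbp1*, *Sdc1*, *Prdm1* and *Jchain* fell and *Irf4* rose (0.35, adjusted p = 0.0357). In Pdap1-deficient mice *Cr2* rose and *Ighd* and *Fcer2a* fell, as did *Prdm1* and *Xbp1*. Of 8 B cell markers 2 rose and 3 fell in each genotype, among them *Ebf1* (0.99 and 0.75) and *Cd79b* (-1.24 and -1.37). The part of these markers in the results of the 9 genes was not tested. Of other markers, *Adgre1* (1.43) and *Lat* (1.48) rose in control mice with LPS-BAFF-TGFβ, from 5.09 to 13.8 and from 0.664 to 1.80 CPM. In the other comparisons none of the T cell, natural killer (NK) cell, myeloid or erythroid markers tested passed edgeR's test. Many were too low to be tested. By genotype with LPS-IL-4, 0 of 8 T cell, 2 of 5 NK cell, 3 of 8 myeloid and 1 of 4 erythroid markers were tested. With LPS-BAFF-TGFβ these numbers were 1, 0, 3 and 1. The 3 myeloid markers had median log2 fold changes of 3.54 and 3.47 in these 2 comparisons, so a missing call does not show equal levels.

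For each of the 9 genes the 2 genes with the most similar profile over the 12 libraries were found among 15794 genes, by the root mean square difference of centred log2 CPM. For *Ccr6* they were *Nhs* (0.33) and *Nav2* (0.34), against a median of 1.66 over all genes, and for *Cxcr4* they were *Ms4a6c* (0.17) and *Trps1* (0.22), against 1.28. For *S1pr1* they were *Phf11b* (0.31) and *Slfn5* (0.36), against 1.34, and for *Gpr183* *Ralgapa2* (0.16) and *Gm43430* (0.16), against 0.77. *S1pr4* was nearest to *Snx8* (0.19) and *Irf1* (0.21), *Itgb7* to *Rdh12* (0.18) and *Fry* (0.21), and *Klf2* to *Nr4a3* (0.28) and then to *S1pr4* (0.35), another of the 9 genes. The flat profiles of *Ccr7* and *Cxcr5* were nearest to *Slc35b4* (0.12) and *Ppfibp1* (0.12), and to *Fam192a* (0.06) and *Sharpin* (0.06). The libraries are shared by all these profiles.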

How the data were processed

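RNA-seq counts of 12 libraries were used. Per the Methods, the authors depleted ribosomal RNA and used a stranded total RNA kit, whereas the labels name a stranded mRNA kit. Per the labels and Methods, they trimmed reads with Trim Galore 0.6.1, mapped them to GRCm38 with STAR 2.6 and counted them per gene with HTSeq 0.9.1. They deposited raw counts without normalization and a table of DESeq2-normalized values, not used here. The annotation release and strand setting are not given in the sources used here. GENCODE M21 named all 55536 identifiers. Symbols of the members were matched to 1 identifier each. Libraries of a group differed by more than counting noise (chi-square per degree of freedom at least 7.07).

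Genes were kept by filterByExpr, scaled by TMM and compared with edgeR 4.0.16 (robust quasi-likelihood F test, R 4.3.3) for 2 groups at a time, and as a genotype by stimulation interaction over 12 libraries. P-values were adjusted over all tested genes (Benjamini-Hochberg, threshold 0.05). For a single gene in 3 against 3 mice, the smallest p of a two-sided exact permutation test is 0.1. CPM are on the scale of all 12 libraries, with exon lengths from GENCODE M21, and log2 CPM used a prior count of 2. Intervals cover 95%. DESeq2 1.42.0 was an alternative. The cultures of a mouse are tied by its number in the series description. The main stimulation and interaction fits held no term for the mouse, so they did not use this pairing. Deviations from the group means correlated between the cultures of a mouse at -0.18, 0.34 and -0.02 in control mice 1, 2 and 3. In Pdap1-deficient mice 1, 2 and 3 these correlations were 0.58, 0.62 and 0.29. The LPS-IL-4 library of control mouse 3 correlated best with the LPS-BAFF-TGFβ library of control mouse 1 (0.37). That of control mouse 1 correlated best with that of control mouse 3 (0.17). Whether the numbers pair the cultures of these mice was not tested further. Tests were tried on simulated counts. Figures used Python 3.11.15 and matplotlib 3.10.9. The 9 members, the lists and the tests were chosen with earlier results of these data known. Of other lists, up to 4 genes per list and comparison with the smallest adjusted p are named, or the nearest one where none passed; *Ccl19* and *Ccl21a* matched several identifiers and were left out. Some genes of these lists are not reported here.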

Additional observations from a re-analysis of the deposited data

How the results depend on the processing

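The 14 alternatives per 2-group comparison were DESeq2's Wald test, DESeq2 size factors, no filter on low counts, at least 10 counts in every library, the replicate block, all 12 libraries in 1 fit, thinning to the smallest library, each of 6 libraries left out, and 1 setting chosen after seeing the data (Y-linked reads as a term, or both cultures of a mouse left out). Genes called by genotype with LPS-IL-4 went from 741 to 1217 with DESeq2, 1694 without a filter and 173 with Y-linked reads as a term, and members called from 1 to 4, 4 and 0, and to 2 with the replicate block. Without 1 library they ranged from 69 to 1759 genes, the extremes being those with control mouse 2 and Pdap1-deficient mouse 1 left out, and from 0 to 3 members. With LPS-BAFF-TGFβ 65 genes became 172 with DESeq2, 257 without a filter, 133 in 1 fit of 12 libraries and 42 with Y-linked reads as a term, and between 19 and 116 without 1 library. For the stimulation in control mice, leaving out 1 library gave between 1608 and 4858 genes and between 4 and 8 members. In Pdap1-deficient mice it gave between 908 and 2235 genes and between 5 and 7 members, and the replicate block, here the mouse, 3854 genes. The interaction had 6 genes with DESeq2, 1 without a filter and between 0 and 1 without 1 library. Genotype numbers are names only: with them as a replicate block 641 and 48 genes were called in the 2 stimulations, and not every library correlated best with the library of its own number. The block changed no other call of a member than that of *Ccr6* with LPS-IL-4 (1.2, adjusted p = 0.0326).

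Signs turned only in differences that did not pass the threshold. *Cxcr5* with LPS-IL-4 (-0.02 for genotype) was 0.0142 after thinning, 0.0378 with Y-linked reads as a term and between -0.13 and 0.0412 without 1 library, and *S1pr4* (0.10) between -0.0338 and 0.28. With LPS-BAFF-TGFβ, *S1pr1* (0.14) was -0.0372 with the replicate block, -0.15 with Y-linked reads as a term and between -0.46 and 0.51 without 1 library. *Itgb7* (-0.03) was 0.16 after thinning and 0.0196 with Y-linked reads as a term, and *Klf2* (-0.13) 0.0801 and 0.12. Without 1 library *Itgb7* lay between -0.17 and 0.10, *Klf2* between -0.39 and 0.48 and *S1pr4* between -0.49 and 0.0594. The stimulation difference of *Cxcr5* in Pdap1-deficient mice (0.04) was -0.0108 after thinning, -0.00443 without mouse 2 and between -0.0261 and 0.14 without 1 library. In the interaction *Klf2* (-0.47) was between -0.74 and 0.16 without 1 library, and without control mouse 1 it was 0.24 and *S1pr4* 0.00286. The cause of these changes was not tested. With 3 mice a group, spread between mice limits what can be called, and counts of 18 to 71 limit *S1pr1*, *S1pr4*, *Klf2* and *Itgb7* in LPS-BAFF-TGFβ libraries other than the deep one.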
